A study of Mus musculus with 23 samples.

Results

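Interferon-stimulated genes (ISGs) are the antiviral genes that a cell turns on after it has sensed viral nucleic acid or received interferon from a neighbouring cell. The set described here was defined by a list of 35 mouse gene symbols, and all 35 were matched among the 55487 genes of a count table from primary murine embryonic fibroblasts (MEFs), the cultured connective-tissue cells of the mouse embryo. After removal of genes with low counts, 15748 genes were tested, among them 34 of the 35 ISGs. The member left out was Oas3, an oligoadenylate synthetase, which had 0 counts in 9 of the 23 libraries and never exceeded 0.906 CPM, a gene's counts scaled to the size of its library after TMM scaling, a correction for differences in composition between libraries.

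The MEFs carried 1 of 4 genotypes of the glucocorticoid receptor (GR), all homozygous and on the FVB/NJ strain background. GRwt/wt cells had the unchanged receptor. In GRD/D cells, threonine replaced an alanine at the interface by which 2 receptors pair through their DNA-binding domains. In GRL/L cells, alanine replaced an isoleucine of the ligand-binding domain, and GRD+L/D+L cells had both replacements in the same receptor. The L and D+L alleles came from CRISPR/Cas9 editing of GRwt/D zygotes. Mice homozygous for L or for D+L die around birth. Every culture came from an embryo at mid-gestation. The changes are present in every cell of the embryo from conception onward, so a difference between genotypes can include whatever differed before the cells were cultured. Cells of each genotype received 10 nM dexamethasone (Dex), a synthetic glucocorticoid, or its vehicle for 5 h, and no interferon or virus was given to any group. There were 3 libraries per genotype and treatment, except for GRD/D vehicle with 2, and no label names the mouse behind a library. The study describes its MEF cultures as derived from different mice, and p-values measure only the spread between these samples.

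RNA sensors such as RIG-I (the product of Ddx58) and MDA5 (Ifih1) signal to interferon regulatory factors, which switch on the type I interferon genes. Secreted interferon binds the receptor pair IFNAR1 and IFNAR2, and the signal then reaches the complex ISGF3, of which STAT2 and IRF9 are parts and which binds interferon-stimulated response elements (ISREs) upstream of ISGs. Fibroblasts keep a low basal expression of these genes without any added interferon, and glucocorticoids are known to restrain parts of the interferon program in immune cells.

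The promoters of the members carried the letters to which ISGF3 binds more often than promoters at large. RefSeq promoter windows on GRCm38.p6, each from 250 bases before to 50 bases after a transcription start, were at hand for 26 members (29 windows). The ISRE-type letters GAAANNGAAA were searched on both strands, where the opposite strand reads TTTCNNTTTC, and overlapping matches were counted separately. They occurred in 14 members (48.3% of the members' windows), against 3.44% of all 32851 windows. No window was at hand for Oas2, Mx1, Mx2, Usp18, Dhx58, Rtp4, Ifi27, Parp9 and Parp14.

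Windows of 8 members are shown because they display how the same letters recur, alone or as overlapping repeats, in ISGs of different roles. They are from the C57BL/6J reference and not from FVB/NJ, are written 5′ to 3′ along the strand of the gene, and have the ISRE-type letters in capitals. The windows are chr4:156200855-156200916 (minus strand) for Isg15, chr19:34640765-34640833 (plus) for Ifit1, chr19:34583353-34583436 (plus) for Ifit3 and chr5:120907526-120907565 (minus) for Oas1a. The others are chr8:71537567-71537622 (minus) for Bst2, chr3:142530263-142530312 (plus) for Gbp7, chr12:26456543-26456592 (minus) for Rsad2 and chr5:92349073-92349122 (minus) for Cxcl10.
Isg15: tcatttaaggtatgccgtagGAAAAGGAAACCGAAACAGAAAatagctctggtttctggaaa
Ifit1: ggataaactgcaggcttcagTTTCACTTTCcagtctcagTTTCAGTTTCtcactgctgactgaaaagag
Ifit3: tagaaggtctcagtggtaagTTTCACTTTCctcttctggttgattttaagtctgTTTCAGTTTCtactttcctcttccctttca
Oas1a: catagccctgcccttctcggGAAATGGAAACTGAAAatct
Bst2: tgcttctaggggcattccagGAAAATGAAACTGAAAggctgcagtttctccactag
Gbp7: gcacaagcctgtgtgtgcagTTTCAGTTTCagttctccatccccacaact
Rsad2: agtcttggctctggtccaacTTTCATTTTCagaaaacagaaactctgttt
Cxcl10: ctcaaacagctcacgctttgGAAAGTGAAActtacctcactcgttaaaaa

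Isg15 held 3 overlapping matches between 78 and 66 bases before its start, and Oas1a and Bst2 each held 2 overlapping matches. Ifit1 and Ifit3 each held 2 separate matches, and the letters of both matches were the same in the 2 genes. Gbp7, Rsad2 and Cxcl10 each held 1. Matches were also found in Oas3, Stat2, Gbp2, Gbp3, Ifih1 and Ddx58, of which those of Ifih1 and Ddx58 lay after the start. A match shows only that these letters are present.

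The libraries held between 16452539 and 23117080 counts. Markers of fibroblasts summed to between 29270 and 65560 CPM in every library, whereas endothelial markers reached at most 20.9, epithelial markers 2.02, skeletal muscle markers 0.25 and glial and neural markers 106 CPM. Macrophage markers, which mark cells that are themselves rich in several ISGs, ranged from 6.09 to 5153 CPM, with the highest value in GRwt/wt vehicle replicate 3, where the other vehicle libraries of this genotype had 39.3 and 17.1 CPM. In such bulk samples, fewer cells of a type and less RNA per cell cannot be told apart. GRwt/wt vehicle replicate 1 stood apart from all other libraries: its highest rank correlation with any of them was 0.916, where every other library reached at least 0.973. The glucocorticoid target Fkbp5 was higher with Dex in GRwt/wt (log2 fold change (LFC) 3.49, adjusted p = 2.67e-06) with LFCs of 1.68 in GRD/D (adjusted p = 0.137), 0.12 in GRL/L, and 0.07 with both changes, so that the labelled treatment was visible in the cells with the unchanged receptor. The genotypes are point mutations, which the level of the GR transcript (Nr3c1) cannot check, and this gene had 4.08, 73.0 and 88.0 CPM in GRwt/wt vehicle replicates 1, 2 and 3.

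Most ISGs were expressed at a low level in these cells. Levels can be compared between genes only per length, and on the scale of CPM per kb of the gene's merged exons the highest median over the 23 libraries was that of Bst2 at 44.2, which encodes tetherin, a membrane protein that holds budding viruses at the cell surface. It was followed by Ifi27 (37.2 CPM per kb), whose product has been linked to mitochondria and cell death, the ubiquitin ligase Trim25 (12.6), the guanylate-binding protein gene Gbp2 (12.2), the ubiquitin-like modifier Isg15 (11.8) and the RNA sensor Ddx58 (11.5). The differences between the 4 last-named medians were small beside the range of each gene over the libraries. At the low end were the chemokine Cxcl10 (0.143), Rsad2 (0.125), which encodes viperin, Oas2 (0.0775), the dynamin-like GTPase Mx1 (0.0439) and Oas3 (0.00715). Summed over the 35 members, the libraries had between 520 and 823 CPM.

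The ISGF3 members Stat2 and Irf9 and the receptor were expressed in all groups. Stat2 had a median of 8.53 and Irf9 of 7.89 CPM per kb. The receptor subunit genes, which are not on the list, had group means of 90.5 to 125 CPM for Ifnar1 and 28.2 to 35.1 CPM for Ifnar2. The regulatory factors Irf1 and Irf3 had group means of 26.3 to 39.9 and 32.1 to 43.0 CPM. Of the interferons themselves, Ifnb1 had 0 counts in every library, and the 14 interferon genes looked up summed to at most 0.276 CPM.

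No ISG passed the test for a change with Dex in any of the 4 genotypes. A gene was called where edgeR gave a p of 0.05 or less after Benjamini-Hochberg adjustment, together with an LFC of at least 1 in either direction. By this rule 0 of 34 tested members were called in GRwt/wt, against 0.159% of all tested genes (25 genes, all higher in this fit), and 0 of 34 were called in each mutant genotype, where the background was 0.0% each. DESeq2 also called 0 members in each genotype, although in GRwt/wt it called 279 genes (119 higher and 160 lower), and a block for the replicate number within genotype called 199 (181 higher and 18 lower). At an unadjusted p under 0.05 there were 4 of 34 members in GRwt/wt (Oas1a, Irf7, Ifi27 and Cxcl10, all lower), beside 15.6% of all tested genes. There was 1 in GRD+L/D+L (Irf7, lower; beside 0.343%), and there were 0 in GRD/D (beside 0.978%) and GRL/L (beside 0.273%).

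Below the threshold, most members had a slightly lower mean with Dex in each genotype, while tested genes as a whole were split evenly. The LFC was below 0 for 25 of 34 members in GRwt/wt, then 29 in GRD/D, 28 in GRL/L, and 31 with both changes, which is 73.5%, 85.3%, 82.4% and 91.2%, beside 50.8%, 49.2%, 51.8% and 49.3% of all tested genes. The median LFC of the members was -0.22, -0.21, -0.09 and -0.20 in the same order, and the median of all tested genes lay between -0.0093 and 0.003. There were 15 members with an LFC below 0 in all 4 genotypes (Isg15, Oasl2, Mx2, Usp18, Irf7, Stat2, Ifih1, Dhx58, Xaf1, Ifi35, Parp14, Gbp2, Gbp3, Psmb8 and Cxcl10), or 44.1% of the 34, beside 7.7% of all tested genes. No member had an LFC above 0 in all 4. These are counts of members that can share the same source of variation in a culture, and no test was made of them.

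**Figure D1:**
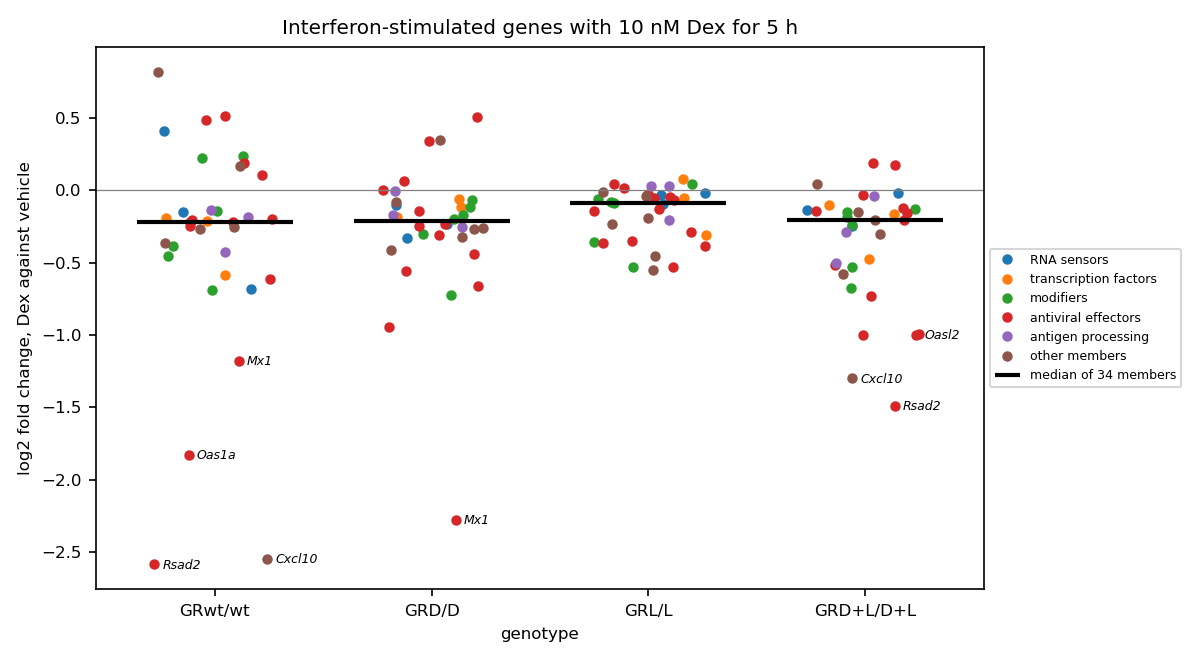
LFC of Dex against vehicle (log2 scale, vertical axis) for each of the 34 tested ISGs (points) in the 4 genotypes, with the members' median as a black line and 0 as a grey line. Most points lie slightly below 0 in each genotype, the spread is narrowest in GRL/L (-0.55 to 0.08) and widest in GRwt/wt (-2.59 to 0.82), and no point was called.

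The medians varied between the libraries of a group. Set against the mean of the vehicle libraries, the 3 Dex libraries had member medians of -0.37, 0.26 and -0.17 in GRwt/wt, of -0.17, -0.10 and -0.39 in GRD/D, of -0.14, -0.08 and -0.03 in GRL/L and of 0.05, -0.48 and -0.16 in GRD+L/D+L. Thus every Dex library lay below 0 in GRD/D and GRL/L, and 1 library in each of GRwt/wt and GRD+L/D+L lay above it. In the genotypes with the L change, where libraries of the same number deviated together, the median was also taken within each pair. It was -0.38, -0.16 and -0.09 in GRD+L/D+L, all below 0, and -0.14, 0.08 and -0.22 in GRL/L, of which 1 lay above. In GRwt/wt the median became 0.12 without vehicle replicate 3, the library with the most macrophage marker counts, and -0.39 without vehicle replicate 1. In GRD+L/D+L it became 0.07 without vehicle replicate 1, -0.51 without Dex replicate 1 and -0.46 without vehicle replicate 2, each of which leaves 1 library of a pair alone. In GRD/D and GRL/L it stayed below 0 whichever library was left out (-0.28 to -0.13 and -0.16 to -0.0062).

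By role, the RNA sensors Ddx58, Ifih1 and Dhx58 (which encodes LGP2, a regulator of the other sensors) had median LFCs with Dex of -0.15 in GRwt/wt, -0.23 in GRD/D, -0.03 in GRL/L, and -0.13 with both changes. Ddx58 was flat across both treatments in GRL/L, at 89.3, 84.2 and 98.5 CPM in vehicle and 88.9, 91.1 and 89.2 CPM in Dex. Ifih1 had 10.8 and 12.4 CPM in GRD/D vehicle against 10.0, 11.1 and 8.47 CPM in Dex, which overlap.

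Among the transcription factors, Irf7, the factor that amplifies interferon production, had the smallest adjusted p of any member with Dex. In GRwt/wt it had 7.94, 6.82 and 8.38 CPM in vehicle and 4.45, 5.95 and 5.06 CPM in Dex, so that the groups did not overlap. Its LFC was -0.58 (SE 0.22), which did not pass (adjusted p = 0.222, edgeR). In GRD+L/D+L it had 7.31, 3.98 and 5.12 CPM in vehicle and 4.62, 3.91 and 3.27 CPM in Dex (LFC -0.47, adjusted p = 1), with overlapping groups but lower values with Dex in all 3 same-numbered pairs. Stat2 and Irf9, the partners in ISGF3, had LFCs between -0.21 and 0.08 in every genotype.

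Among the protein modifiers, Isg15, whose product is attached to other proteins much as ubiquitin is, had 9.54, 10.6 and 14.7 CPM in GRwt/wt vehicle and 6.17, 8.01 and 7.37 CPM in Dex. The groups did not overlap, but the LFC of -0.69 (SE 0.41) did not pass (adjusted p = 0.446). In the other genotypes the groups of Isg15 overlapped. Usp18, which removes ISG15 and damps the receptor, had LFCs of -0.39, -0.72, -0.53 and -0.67 in the unchanged, D/D, L/L and D+L cells. In GRD/D its libraries were separate, with 4.58 and 4.71 CPM in vehicle against 2.80, 2.86 and 2.77 CPM in Dex, and the adjusted p was 1.

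Members whose vehicle and Dex libraries did not overlap, all lower with Dex, numbered 2 in GRwt/wt (Isg15 and Irf7), 11 in GRD/D, and 0 in either genotype with the L change. The share of all tested genes that were lower without overlap was 4.48%, 10.5%, 2.41% and 1.49%, and 0 members were higher without overlap (background 4.98%, 10.8%, 2.43% and 1.88%). The 11 in GRD/D, where the vehicle group had only 2 libraries, were Ifit1, Oas2, Usp18, Stat2, Ifi35, Parp9, Dtx3l, Trim25, Gbp2, Gbp3 and Tap1, which is 32.4% of the 34 tested members.

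Among the antiviral effectors, Ifit1, which binds viral RNA that lacks the marks of the host, had 14.04 and 16.45 CPM in GRD/D vehicle against 11.2, 9.16 and 8.58 CPM in Dex (LFC -0.66). In GRD+L/D+L it had 25.6, 8.32 and 16.01 CPM in vehicle against 8.05, 5.63 and 11.2 CPM in Dex (LFC -1.0), and the groups overlapped, while each same-numbered pair was lower with Dex. In GRwt/wt the LFC of Ifit1 had the opposite sign (0.49), and vehicle replicate 1 of that genotype held 0.717 CPM where replicates 2 and 3 held 13.8 and 11.96 CPM.

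The members with the widest differences in GRwt/wt had them through a single vehicle library. Rsad2 had 0.0552, 0.430 and 4.21 CPM in vehicle and 0, 0.515 and 0.250 CPM in Dex (LFC -2.59), and Cxcl10, a chemokine that attracts T cells, had 0.0552, 0.161 and 3.13 CPM in vehicle and 0.0505, 0.375 and 0.125 CPM in Dex (LFC -2.55). Oas1a had 0.607, 1.88 and 7.97 CPM in vehicle and 0.253, 1.26 and 1.44 CPM in Dex (LFC -1.83). For each of these genes vehicle replicate 3 was the highest of all 23 libraries. Without that library the LFC of Oas1a was -0.31. The macrophage marker sum of 5153 CPM in that library moved with these values, and its part in them was not tested.

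Of the genes of antigen processing, the immunoproteasome subunits Psmb8 and Psmb9 and the peptide transporter Tap1 had median LFCs of -0.18, -0.17, 0.03 and -0.28 in the unchanged, D/D, L/L and D+L cells. The remaining members (Cxcl10, Ifi27, Ifi35, Ifi44, Rtp4 and Xaf1) had medians of -0.26, -0.26, -0.21 and -0.25. By presence of the ISRE-type letters, the median LFC was -0.21 in the 13 tested members with a match and -0.19 in the 12 without in GRwt/wt, -0.23 and -0.17 in GRD/D, -0.14 and -0.06 in GRL/L, and -0.24 and -0.19 where both changes were present. No test of the difference was made.

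No member passed the test of a different response to Dex between genotypes. The difference of a mutant's LFC from that of GRwt/wt was called for 0 of 34 members in the D/D, L/L and D+L cells, beside 0.0%, 0.0254% and 0.0254% of all tested genes. The smallest adjusted p of a member was 0.791, 0.855 and 0.977 in that order, and 0 members had an unadjusted p under 0.05 with edgeR (beside 7.11%, 6.29% and 5.05%). With DESeq2 0 members were called.

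**Figure D2:**
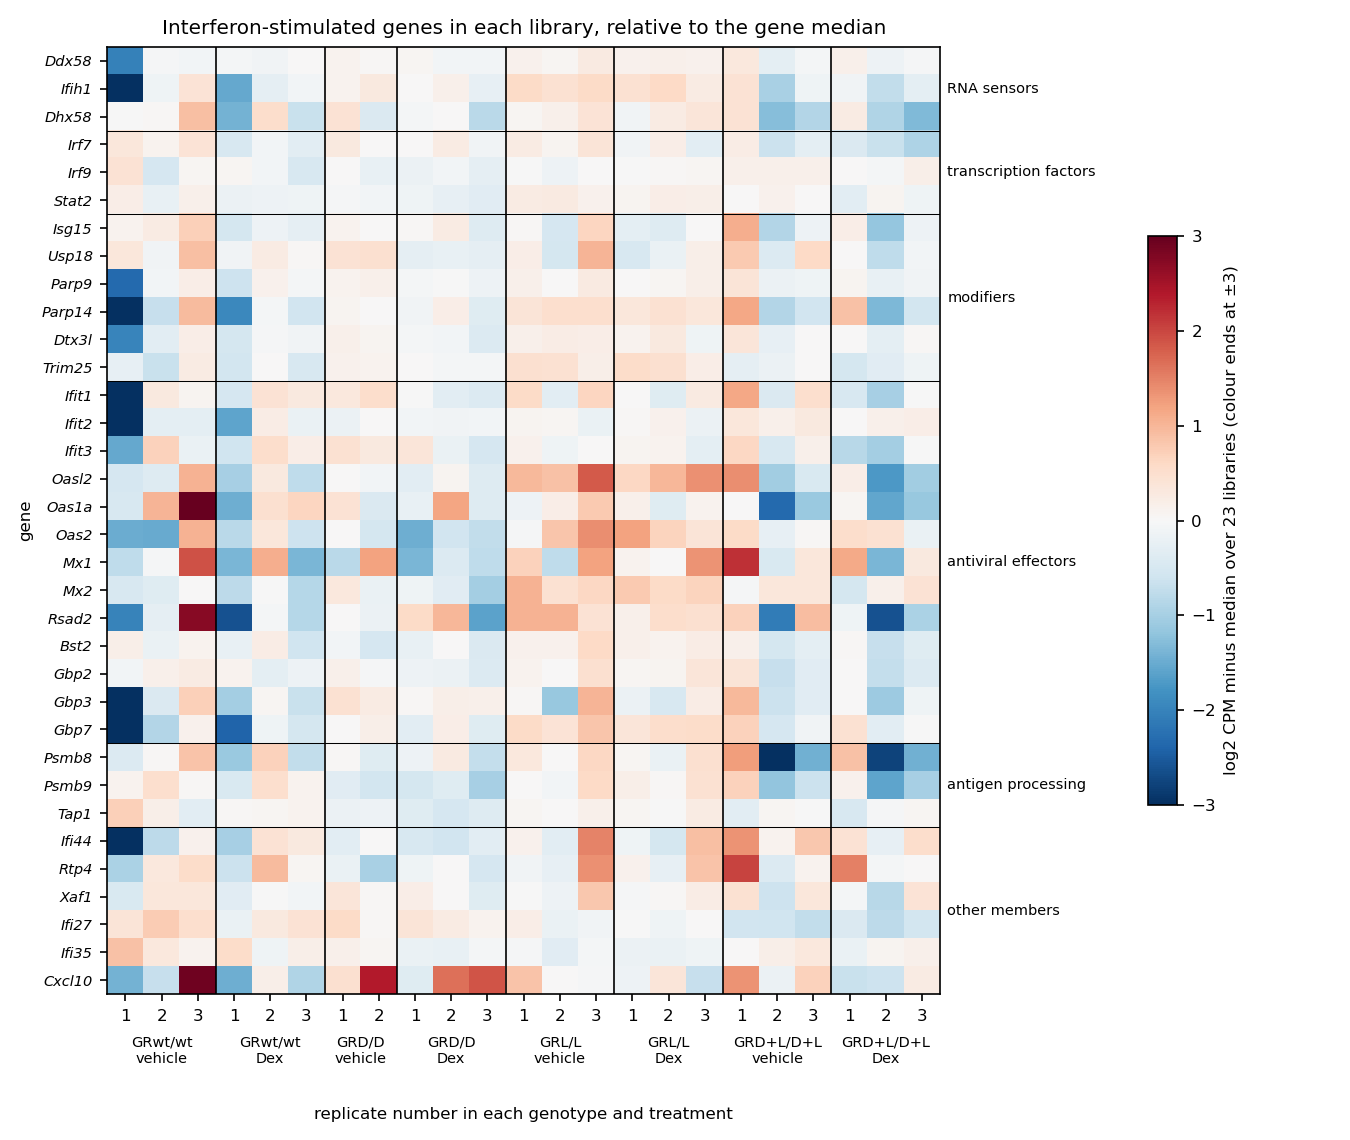
Level of each ISG (rows, ordered by role) in each of the 23 libraries (columns, grouped by genotype and treatment), as the log2 difference from that gene's median over all libraries. GRwt/wt vehicle replicate 1 is low for many members, and GRD+L/D+L vehicle replicate 1 and GRL/L vehicle replicate 3 are high for many.

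Between genotypes, at most 2 members were called in any comparison. In vehicle, GRL/L against GRwt/wt called 1 of 34 members (Mx2, higher), beside 7.78% of all tested genes (4.93% higher), and GRD+L/D+L against GRwt/wt called 2 of 34 (Oas1a and Ifi27, both lower), beside 8.32% (4.71% lower). GRD/D against GRwt/wt called 0 (background 0.00635%), also with DESeq2, and 0 members had an unadjusted p under 0.05 with edgeR (beside 12.4%). The median LFC of the members was 0.16, 0.07 and -0.08 in these 3 comparisons. The 3 comparisons share the GRwt/wt vehicle libraries.

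In Dex, GRL/L against GRwt/wt called 1 of 34 members (Mx2, again higher; background 2.59%, of which 1.37% higher), GRD+L/D+L called 0 (2.75%) and GRD/D called 0 (0.254%). Between the mutants in vehicle, 0 members were called for GRL/L against GRD/D (1.08%), GRD+L/D+L against GRL/L (0.0953%) and GRD+L/D+L against GRD/D (1.02%). In these 5 comparisons with 0 calls, the members with an unadjusted p under 0.05 numbered 1 in GRD+L/D+L (beside 20.9% of all tested genes) and 1 in GRD/D (11.1%) against GRwt/wt in Dex, and 1 (15.5%), 3 (9.57%) and 1 (15.5%) between the mutants. DESeq2 called 0 members in these 5 comparisons. In Dex the median LFC of the members against GRwt/wt was 0.29 in GRL/L, with 28 of 34 above 0, and 0.04 in both GRD/D and GRD+L/D+L. In vehicle it was 0.15 for GRL/L against GRD/D, with 27 of 34 above 0, and -0.17 for GRD+L/D+L against GRL/L and 0.07 against GRD/D. The share of members below 0 was 17.6% for GRL/L against GRwt/wt in Dex and 20.6% against GRD/D in vehicle, beside 51.5% and 48.3% of all tested genes.

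These medians moved with single libraries. In Dex against GRwt/wt, leaving out 1 library gave 0.13 (without GRwt/wt Dex replicate 1) to 0.43 (without GRwt/wt Dex replicate 2) in GRL/L. The sign turned in GRD/D, from -0.11 to 0.22 without the same libraries, and in GRD+L/D+L, from -0.17 without its own Dex replicate 1 to 0.23 without GRwt/wt Dex replicate 2. In vehicle, GRD+L/D+L against GRD/D ran from -0.30 to 0.14 and against GRL/L from -0.62 to -0.0054, without GRD+L/D+L replicates 1 and 2 respectively. GRL/L against GRD/D ran from 0.05 to 0.25, without GRL/L replicates 3 and 2.

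Markers of other cells also differed between the mutants in vehicle. Macrophage markers summed to 998 and 287 CPM in GRD/D, to 763, 750 and 332 CPM in GRL/L and to 84.4, 7.27 and 55.2 CPM in GRD+L/D+L. Of the 12, 11 had an LFC above 0 in GRL/L against GRD/D (median 0.37), and 0 did in GRD+L/D+L against GRL/L (median -4.08) or against GRD/D (median -3.72). Glial and neural markers summed to 57.8 and 101 CPM in GRD/D and to 12.3 to 23.8 CPM in GRL/L, where 0 of 4 tested had an LFC above 0 against GRD/D (median -1.90) and 1 was called lower. The part of these markers in the members' values was not tested.

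Mx2, which encodes an interferon-inducible GTPase, was about 2-fold higher in GRL/L than in GRwt/wt cells under both treatments. In vehicle the libraries held 2.98, 3.22 and 4.17 CPM in GRwt/wt and 8.72, 5.76 and 6.46 CPM in GRL/L (LFC 1.01, SE 0.30, adjusted p = 0.022). In Dex they held 2.38, 4.12 and 2.25 CPM in GRwt/wt and 7.27, 6.25 and 6.65 CPM in GRL/L (LFC 1.20, SE 0.30, adjusted p = 0.028). The groups did not overlap in either treatment. Macrophage markers summed to 795, 783 and 320 CPM in GRL/L Dex and to 31.6, 103 and 15.6 CPM in GRwt/wt Dex, and 12 of 12 had an LFC above 0 (median 3.83), of which 0 were called. In vehicle they summed to 763, 750 and 332 CPM in GRL/L and to 39.3, 17.1 and 5153 CPM in GRwt/wt, and 0 of 12 had an LFC above 0 (median -1.55). Glial and neural markers had a median LFC of -1.67 in vehicle (1 of 4 above 0, 1 called lower) and -1.26 in Dex (0 of 4 above 0, 0 called). Fibroblast markers had medians of 0.72 in vehicle (7 of 9 above 0) and 0.18 in Dex (8 of 9), with 0 called. The part of these markers in the Mx2 values was not tested.

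GRD/D and GRD+L/D+L cells lay between for Mx2. The vehicle means were 3.46 ± 0.628 CPM in GRwt/wt (SD, n = 3), 4.42 ± 1.13 in GRD/D (n = 2), 4.88 ± 0.685 in GRD+L/D+L (n = 3) and 6.98 ± 1.55 in GRL/L (n = 3). The GRL/L mean was not called against that of GRD/D (LFC 0.66, adjusted p = 0.369) or against GRD+L/D+L (LFC -0.51 for GRD+L/D+L minus GRL/L, adjusted p = 0.665). The Mx2 call is close to the threshold: leaving out 1 library at a time gave LFCs of 0.82 to 1.21 in vehicle and 1.05 to 1.54 in Dex, and the call was lost without GRL/L vehicle replicate 1, GRwt/wt vehicle replicate 1 or 2, any GRL/L Dex library, and GRwt/wt Dex replicate 1 or 3. Of the 50-base words of Mx2, 6.55% also occur in another gene, Mx1.

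Ifi27 was lower in GRD+L/D+L than in GRwt/wt cells, with a wide gap between the groups. In vehicle it had 70.9, 92.2 and 77.9 CPM in GRwt/wt and 36.5, 35.9 and 32.8 CPM in GRD+L/D+L (LFC -1.20, SE 0.17, adjusted p = 0.000513). With Dex it had 47.1, 67.0 and 73.2 CPM in GRwt/wt and 40.1, 31.5 and 37.2 CPM in GRD+L/D+L, where the LFC of -0.78 passed the adjusted p (0.0185) but not the threshold on the fold. This pass was lost in 5 of 13 other settings, among them the removal of GRD+L/D+L Dex replicate 2 or 3 or GRwt/wt Dex replicate 3. Leaving out 1 library at a time moved the vehicle LFC between -1.26 and -1.10, and the call held each time. In the same vehicle comparison macrophage markers had a median LFC of -5.33, with 10 of 12 called lower, and glial and neural markers one of -1.49, with 0 of 4 above 0 and 1 called lower. With Dex these medians were -0.09 (0 called) and -1.17 (0 called). The part of these markers in the Ifi27 values was not tested.

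In vehicle, the means of GRL/L and GRD/D cells lay between for Ifi27. GRL/L had 62.6, 47.3 and 50.4 CPM, all below the 3 GRwt/wt libraries (LFC -0.59, adjusted p = 0.0207), and GRD/D vehicle had 81.3 and 55.5 CPM, which overlapped with GRwt/wt. The GRL/L difference did not pass in 6 of 14 other settings, among them the removal of GRL/L vehicle replicate 2 or 3 or GRwt/wt vehicle replicate 2 (LFC -0.72 to -0.50 over the removals). GRD+L/D+L minus GRD/D in vehicle gave an LFC of -0.96 with an adjusted p of 0.0181, which did not pass in 6 of 12 other settings, among them the removal of either GRD/D library or of GRD+L/D+L replicate 2 or 3 (LFC -1.20 to -0.66). GRD+L/D+L minus GRL/L gave -0.61 (adjusted p = 0.211), which did not pass. With a correction for GC content and length the LFC of GRD+L/D+L against GRwt/wt in vehicle was -0.70 (adjusted p = 0.0542), and with only the 2 groups in the fit it was -1.17 (adjusted p = 0.298).

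Oas1a, an oligoadenylate synthetase that makes the activator of RNase L, was called lower in GRD+L/D+L vehicle (LFC -2.98, SE 0.90, adjusted p = 0.0283), and the call rested on a few libraries. GRD+L/D+L had 0.881, 0.0915 and 0.353 CPM, against 0.607, 1.88 and 7.97 CPM in GRwt/wt, and the groups overlapped. Without GRwt/wt vehicle replicate 3, the library with the high macrophage markers, the LFC was -1.45 and the call was lost, as it was without GRD+L/D+L vehicle replicate 2 (LFC -2.48) or 3 (LFC -2.85), under the replicate block, with the correction for GC content and length and with only the compared groups in the fit. Of the 50-base words of Oas1a, 57.6% are shared with other genes, chiefly Oas1g and Oas1b, so its counts are uncertain.

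**Figure D3:**
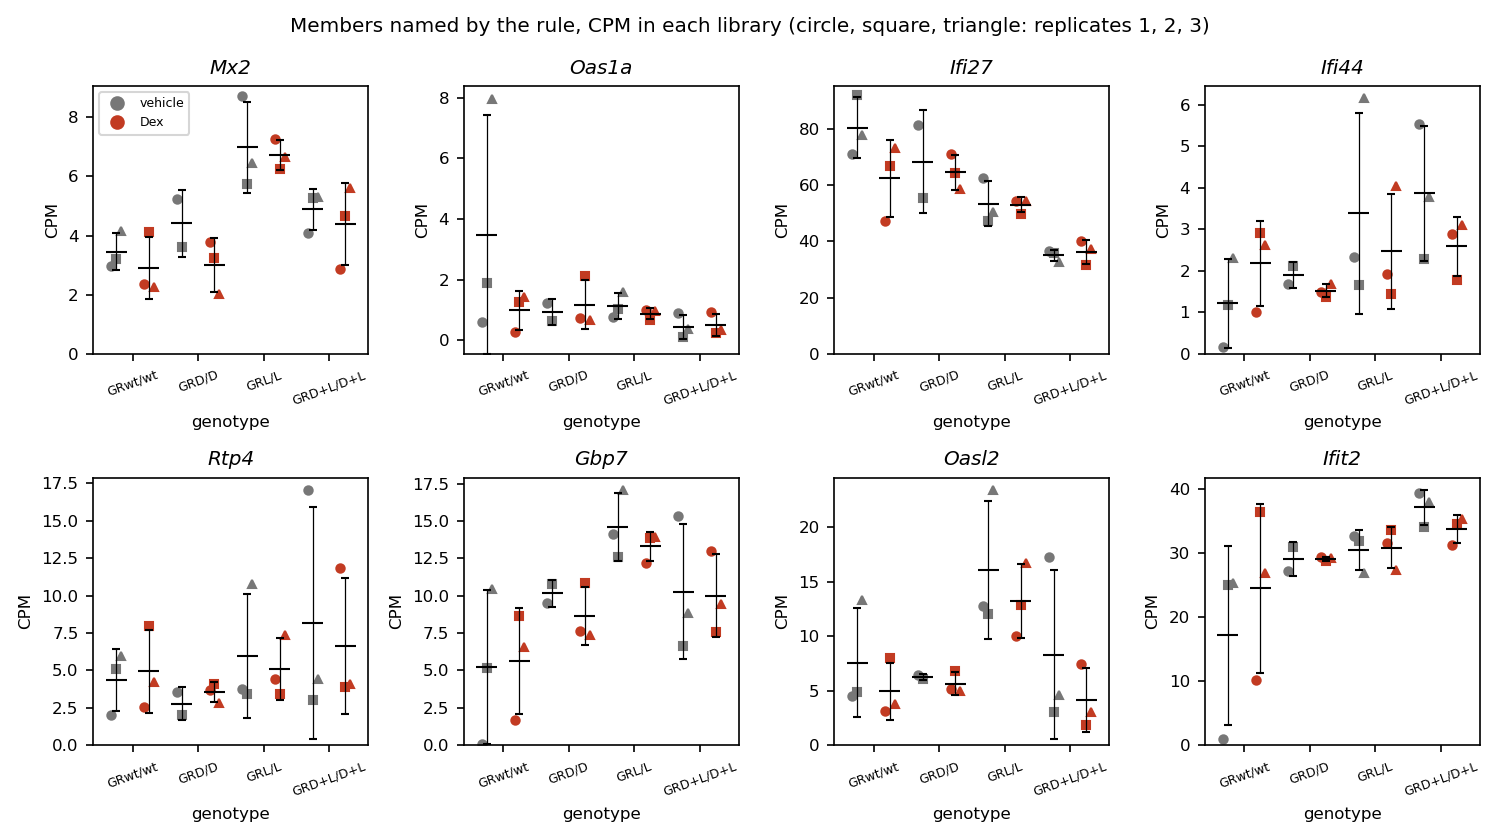
CPM of Mx2, Ifi27, Oas1a and further ISGs in each library (points), with the mean and SD of each group (horizontal lines and error bars) for the 4 genotypes in vehicle and Dex. The GRL/L points of Mx2 lie above all GRwt/wt points, those of Ifi27 in GRD+L/D+L vehicle (32.8 to 36.5) lie below those of GRwt/wt vehicle (70.9 to 92.2), and the height of Oas1a in GRwt/wt vehicle comes from 1 point.

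By the adjusted p alone, 4 members passed in GRL/L against GRwt/wt in vehicle (Mx2, Ifi27, Ifi35 and Trim25), beside 23% of all tested genes, and 2 in Dex (Mx2 and Trim25), beside 5.47%. Only Ifi27 passed by this rule in GRD+L/D+L against GRwt/wt in Dex (beside 4.89%) and against GRD/D in vehicle (beside 1.57%). Trim25, the ubiquitin ligase that activates RIG-I, had 60.9, 45.9 and 85.7 CPM in GRwt/wt vehicle and 100, 98.9 and 81.8 CPM in GRL/L vehicle (LFC 0.55, adjusted p = 0.0485), with overlap. This did not pass in 9 of 14 other settings, among them the replicate block, the correction for GC content and length, and the removal of any library of the 2 groups other than GRwt/wt vehicle replicate 3, and the LFC ranged from 0.34 without GRwt/wt vehicle replicate 2 to 0.86 without replicate 3. With Dex it had 49.7, 72.7 and 52.0 CPM in GRwt/wt against 106, 102 and 82.7 CPM in GRL/L, without overlap (LFC 0.73, adjusted p = 0.0337), which did not pass without a filter on low counts or without GRL/L Dex replicate 1 or 2 or GRwt/wt Dex replicate 1 or 3. Ifi35 had 33.3, 22.6 and 19.3 CPM in GRwt/wt vehicle against 17.7, 14.2 and 17.4 CPM in GRL/L vehicle (LFC -0.61, adjusted p = 0.0288). This difference kept its sign but did not pass in 7 of 14 other settings. Among them were the removal of any GRL/L vehicle library or of GRwt/wt vehicle replicate 1, and the removal of the last gave an LFC of -0.35. In 1 further setting, a correction for GC content and length, the LFC of Ifi35 was 0.07 (adjusted p = 0.762), so that its direction did not hold.

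Several other members had differences in their group means that did not pass. Gbp7, a guanylate-binding protein, had 14.1, 12.6 and 17.1 CPM in GRL/L vehicle, all above the 0.110, 5.16 and 10.4 CPM of GRwt/wt vehicle (LFC 1.47, adjusted p = 0.158). Oasl2, an oligoadenylate synthetase-like protein, had 9.99, 12.9 and 16.8 CPM in GRL/L with Dex, above the 3.18, 7.96 and 3.75 CPM of GRwt/wt (LFC 1.41, adjusted p = 0.179). Ifit2 had 39.4, 34.2 and 38.0 CPM in GRD+L/D+L vehicle against 0.993, 25.1 and 25.4 CPM in GRwt/wt (LFC 1.11, adjusted p = 0.199). In this last comparison the low GRwt/wt mean came from replicate 1. Ifi44, a gene strongly induced by interferon, had 5.54, 2.29 and 3.77 CPM in GRD+L/D+L vehicle against 0.166, 1.18 and 2.31 CPM in GRwt/wt (LFC 1.65, adjusted p = 0.0858), and the groups overlapped. Rtp4, which encodes a chaperone of membrane receptors, had 17.1, 3.02 and 4.42 CPM in GRD+L/D+L vehicle against 3.55 and 2.02 CPM in GRD/D (LFC 1.55, adjusted p = 0.351), where the high mean came from 1 library.

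Members whose groups did not overlap were no more frequent than among all genes in most of these comparisons. For GRL/L against GRwt/wt in vehicle there were 5 higher (Ifit2, Mx2, Ddx58, Ifih1 and Gbp7; 14.7% of the 34 members, beside 19.6% of all genes) and 2 lower (Ifi27 and Ifi35; beside 18.4%). For GRD+L/D+L there was 1 higher (Ifit2; beside 13.4%) and 1 lower (Ifi27; beside 13.9%). In Dex, GRL/L had 10 members above GRwt/wt without overlap (Oasl2, Oas2, Mx2, Rsad2, Stat2, Ddx58, Ifih1, Parp14, Trim25 and Gbp7; 29.4% of 34, beside 22.2% of all genes) and 0 below (beside 20.4%). The macrophage markers given beside Mx2 were likewise higher in each GRL/L Dex library (320 to 795 CPM) than in the GRwt/wt ones (15.6 to 103 CPM), and their part in these values was not tested. GRwt/wt Dex replicate 1 also had a trend with GC content, given below (0.497 over the members), whose part here was not tested. GRD+L/D+L with Dex had 0 above (15.3%) and 1 below (14.7%). GRD/D had 3 above (11.1%) and 1 below GRwt/wt in vehicle (12.1%), and 0 above (11.4%) and 2 below in Dex (12.4%). Between the mutants in vehicle, GRL/L had 11 above (29.6%) and 2 below GRD/D (28.8%), GRD+L/D+L had 3 above (10.3%) and 5 below GRL/L (13.1%), and GRD+L/D+L had 4 above (22%) and 2 below GRD/D (23%).

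GRwt/wt vehicle replicate 1 bears on every comparison with that group, and its low ISG counts followed the base composition of the genes. Over the 34 tested members, the log2 difference of this library from the median of all other libraries had a rank correlation of 0.858 with the GC content of the gene's longest transcript. In the other libraries, measured in the same way, the value over the members lay between -0.452 and 0.497. The value of 0.497 was that of GRwt/wt Dex replicate 1, which enters every comparison with GRwt/wt in Dex. GRwt/wt vehicle replicate 2 followed at 0.44. Over all tested genes, the correlation was 0.688 in GRwt/wt vehicle replicate 1 and 0.323 in GRwt/wt Dex replicate 1. Set against replicates 2 and 3 of its own group, vehicle replicate 1 was lower for all 16 members with a GC content under 48% (median -2.62, range -5.11 to -0.29), and for 12 of the 18 with 48% or more (median -0.20, range -2.49 to 0.78). Genes at the extremes were Gbp7, Parp14 and Ifit2, with -5.11, -4.95 and -4.53, and Ifi35 and Tap1, with 0.67 and 0.78. These correlations are across genes, which are not independent replicates.

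**Figure D4:**
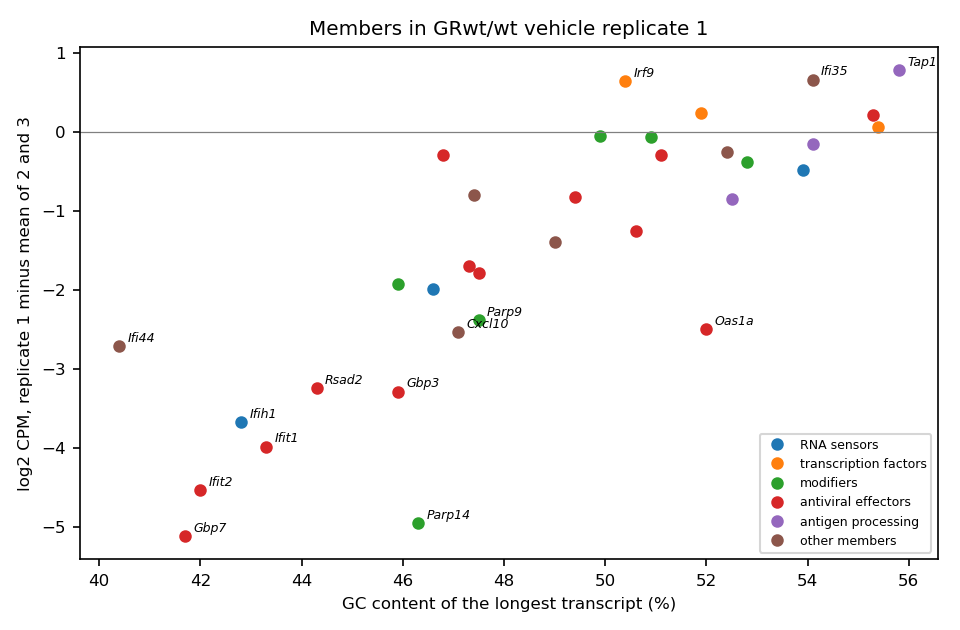
Log2 difference of GRwt/wt vehicle replicate 1 from the mean of replicates 2 and 3 (vertical axis) against the GC content of the longest transcript in percent (horizontal axis) for the 34 tested ISGs (points). The points rise from -5.11 for Gbp7 at 41.7% GC to 0.78 for Tap1 at 55.8% GC.

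Without GRwt/wt vehicle replicate 1, the median LFC of the members was lower in each comparison with that group in vehicle. It was -0.11 for GRD/D, 0.085 for GRL/L and -0.13 for GRD+L/D+L. Without GRL/L vehicle replicate 3 the GRL/L median turned to -0.07, without GRD+L/D+L vehicle replicate 1 the median of that genotype turned to -0.20, and without GRwt/wt vehicle replicate 2 that of GRD/D was -0.23. With replicate 3 of GRwt/wt vehicle left out, the library with the macrophage markers, the medians against that group were 0.45, 0.82 and 0.53 in the D/D, L/L and D+L cells. The members called then numbered 6 in GRL/L (Ifi44, Oasl2, Oas2, Mx2, Dtx3l and Gbp7, all higher), beside 17.1% of all genes tested in that fit, and 4 in GRD+L/D+L (Ifi44, Oas2 and Dtx3l higher, Ifi27 lower), beside 12.8%. GRwt/wt vehicle is then held by replicates 1 and 2.

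Cultures of the same genotype differed widely from each other in their ISG level, and in both genotypes with the changed ligand-binding domain the same replicate numbers stood out in both treatments. In GRD+L/D+L, replicate 1 had the highest value of the 3 replicates under both vehicle and Dex for 20 of the 34 members (58.8%, beside 33.3% of all tested genes), and replicate 2 had the lowest under both for 23 (67.6%, beside 19.4%). In GRL/L, replicate 3 was the highest under both for 18 (52.9%, beside 18.1%) and replicate 2 the lowest for 12 (35.3%, beside 19.5%). Other numbers were the highest under both treatments for few members: replicates 1 and 2 of GRL/L for 2 and 4 (beside 13.0% and 24.3% of all genes), and replicates 2 and 3 of GRD+L/D+L for 1 and 4 (beside 17.3% and 15.2%). Over all genes, libraries with the same number deviated together from their group means in these 2 genotypes. The correlations were 0.322, 0.644 and 0.631 in GRL/L and 0.887, 0.788 and 0.652 in GRD+L/D+L. Libraries of the same number did not do so throughout in GRwt/wt (0.548, 0.027 and -0.026) or GRD/D (0.283 and -0.199). In GRwt/wt, vehicle replicates 2 and 3 correlated most with Dex replicates 3 and 2, and in GRD/D vehicle replicate 2 did so with Dex replicate 3. Whether such libraries share a culture is not given.

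The genes that follow were chosen after their values were seen. Psmb8, a catalytic subunit of the immunoproteasome, had 25.1, 1.14 and 3.77 CPM in GRD+L/D+L vehicle replicates 1, 2 and 3 and 19.4, 1.44 and 3.78 CPM in the Dex libraries of the same numbers. The highest library was 21.9 times the lowest in vehicle and 13.5 times in Dex, whereas in GRL/L these ratios were 1.54 and 1.62. Rtp4 had 17.1, 3.02 and 4.42 CPM in GRD+L/D+L vehicle and 11.9, 3.91 and 4.07 CPM in Dex. Parp14, a mono-ADP-ribosyltransferase, had 34.1, 8.32 and 10.3 CPM in vehicle and 28.3, 5.98 and 10.4 CPM in Dex.

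Isg15 had 19.2, 4.85 and 8.01 CPM in GRD+L/D+L vehicle and 10.2, 3.97 and 7.97 CPM in Dex, so that replicate 2 was the lowest and replicate 1 the highest under both treatments. In GRL/L, Oasl2 had 12.8, 12.1 and 23.4 CPM in vehicle and 9.99, 12.9 and 16.8 CPM in Dex, and Ifi44 had 2.33, 1.67 and 6.15 CPM in vehicle and 1.92, 1.44 and 4.04 CPM in Dex, both highest in replicate 3 throughout. The macrophage markers in GRL/L summed to 332 and 320 CPM in replicate 3, against 750 to 795 CPM in replicates 1 and 2. Fibroblast markers were also lower there, at 48480 and 48170 CPM against 52880 to 55760 CPM. Endothelial markers were higher, at 13.3 and 12.4 CPM against 5.48 to 7.11 CPM. So were glial and neural markers, at 23.8 and 25.4 CPM against 12.3 to 18.8 CPM. The part of these markers in the ISG levels was not tested. In GRD+L/D+L, Ifi27 varied by a ratio of only 1.11 over the vehicle libraries and 1.27 over the Dex libraries.

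**Figure D5:**
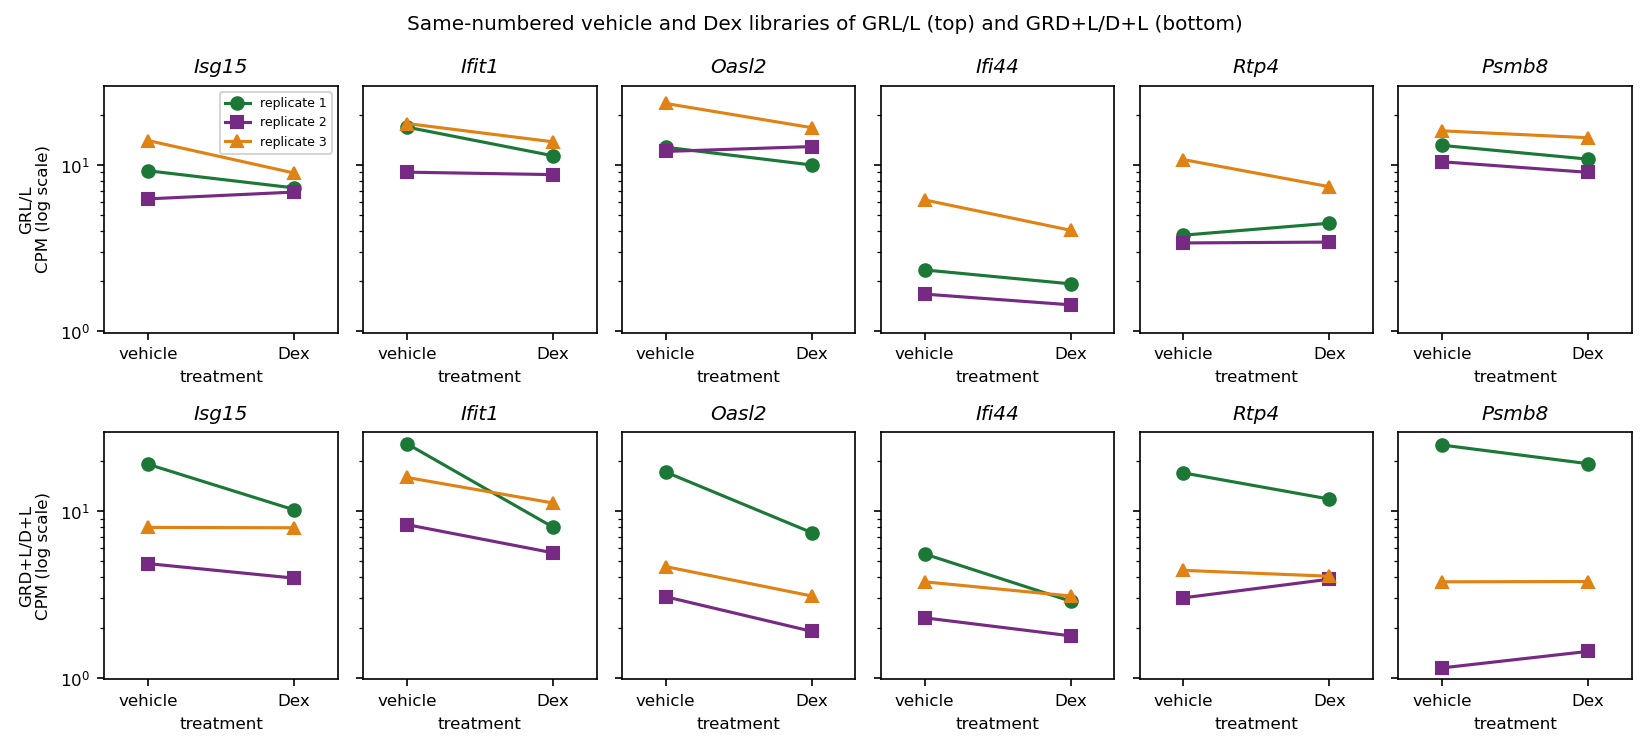
CPM of 6 ISGs (log scale, vertical axis) in vehicle and Dex libraries of the same replicate number (points joined by lines), GRL/L above and GRD+L/D+L below. In GRD+L/D+L vehicle, replicate 1 lies highest and replicate 2 lowest for every gene shown, as in Psmb8 (25.1 against 1.14 CPM).

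GRD+L/D+L replicate 1 also differed in its cell markers: fibroblast markers summed to 30570 and 34200 CPM in its vehicle and Dex libraries, against 51220 to 65560 CPM in replicates 2 and 3. Its macrophage markers in vehicle summed to 84.4 CPM, beside 7.27 and 55.2 CPM in replicates 2 and 3. Over both treatments its endothelial markers summed to 3.42 and 3.86 CPM, against 16.7 to 20.9 CPM in the other replicates, and its glial and neural markers to 31.6 and 32.5 CPM, against 8.68 to 17.9 CPM. The part of these values in the ISG levels was not tested. Compared within the same number, Dex was lower than vehicle in all 3 pairs for 16 of 34 members in GRD+L/D+L (47.1%, beside 12.7% of all genes) and for 4 in GRL/L (Psmb8, Ifi44, Parp14 and Ifit1; beside 13.1%). Dex was higher in all 3 pairs for 0 members in GRD+L/D+L (beside 14.1%) and for Trim25 and Irf9 in GRL/L (beside 12.0%). With the replicate number as a block within each genotype, the median LFC with Dex was -0.17 in GRD+L/D+L and -0.09 in GRL/L, and 0 members were called.

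Of 11 genes for the interferon receptors and JAK-STAT signalling, 0 were called in any comparison. By the adjusted p alone, the receptor subunit Ifnar1 was higher in GRD+L/D+L than in GRwt/wt at an LFC of 0.42 in vehicle (adjusted p = 0.0324) and 0.47 in Dex (adjusted p = 0.047). Il10rb, a receptor subunit for interferon lambda and interleukin 10, was lower in vehicle (LFC -0.93, adjusted p = 0.0407), where the highest GRwt/wt library was replicate 3 at 58.0 CPM. Of the lists of sensors and regulatory factors (21 of 22 tested), feedback regulators (11 of 11), class I antigen presentation (12 of 12) and further ISGs (44 of 50), 0 genes were called with Dex in any genotype.

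Between genotypes, 1 gene each of the 3 first-named lists was called, all lower in GRD+L/D+L than in GRwt/wt in vehicle. In that comparison 4.71% of all tested genes were called lower. H2-D1, a class I heavy chain, had 380, 391 and 510 CPM in GRwt/wt and 278, 166 and 188 CPM in GRD+L/D+L (LFC -1.02, SE 0.26, adjusted p = 0.0124), without overlap. Irf8, a transcription factor of myeloid cells, had 0.386, 0.215 and 20.9 CPM in GRwt/wt (LFC -4.82, adjusted p = 0.027), and the phosphatase Ptpn6 had 1.60, 1.07 and 24.3 CPM (LFC -3.13, adjusted p = 0.0436). Both high values were in GRwt/wt vehicle replicate 3, with its 5153 CPM of macrophage markers, of which 10 of 12 were called lower in the same comparison.

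Among the further ISGs, Slfn2, a Schlafen gene of immune cells, was lower than in GRwt/wt in vehicle in both GRL/L (LFC -1.70, adjusted p = 0.0342) and GRD+L/D+L (LFC -1.93, adjusted p = 0.0231). It had 5.74, 4.67 and 24.1 CPM in GRwt/wt vehicle, again highest in replicate 3. The GTPase gene Tgtp2 was called higher in the same comparisons, but it had at most 0.055 CPM in GRwt/wt vehicle, 0.62 CPM in GRL/L and 0.829 CPM in GRD+L/D+L, so that its fold is not given. Phf11b was called lower in GRD+L/D+L vehicle, where it had 0 counts in every library, against 0, 0.107 and 1.22 CPM in GRwt/wt. Ifitm1, a membrane protein that blocks viral entry, was lower in GRD+L/D+L than in GRwt/wt with Dex (LFC -1.92, adjusted p = 0.035). Helz2 was higher in GRL/L than in GRD/D vehicle (LFC 1.00, adjusted p = 0.0157), with 37.4, 40.2 and 31.5 CPM against 17.2 and 19.1 CPM.

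Some members overlap their neighbours. Psmb9 and Tap1 overlap at their ends on opposite strands, as do Parp9 and Dtx3l, and Irf9 overlaps Rnf31 on the same strand. Whether the counting used the strand is not given in the sources used here, so how reads from the shared stretches were assigned is unknown. Ifit3 shares 51.2% of its 50-base words with other genes, chiefly Ifit3b.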

How the data were processed

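RNA-seq counts of 23 MEF libraries in 8 groups were analysed. Per the labels, the authors aligned reads to mm10 (GRCm38) with HISAT2 2.1.0 and counted them per gene with featureCounts 2.0.0, and the deposited values are whole-number counts without normalization. The annotation release and the use of strand are not given in the sources used here. IDs were matched to symbols, lengths and GC content through GENCODE M21 (55227 of 55487 matched).

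Counts were tested with edgeR 4.0.16 (R 4.3.3) by the quasi-likelihood test, with 1 mean per group, all 23 libraries, TMM scaling, filterByExpr and a prior count of 0.125, and p-values were Benjamini-Hochberg adjusted over the 15748 tested genes. A gene was called at an adjusted p of at most 0.05 and an LFC of at least 1 in either direction. SEs are those of the LFC. CPM values use a library's total over the tested genes, multiplied by its TMM factor. The scripts were tested on simulated data.

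The members and lists were chosen with earlier results of these data known. Besides members called and members that pass the adjusted p, the members with a mean of at least 1 CPM and the widest differences between genotypes were named until 8 were reached. Values by library of all further members were chosen after they were seen. Alternatives were RLE scaling, other filters, DESeq2 1.42.0, fits of the compared groups only, a replicate block, a correction for GC content and length by a loess curve, and leaving out each library. Same-numbered vehicle and Dex libraries were treated as pairs in the genotypes with the L change, where each pair deviated together from the group means. The replicate block within genotype was added after the data were seen. A GRD/D vehicle library of number 3 was not analysed here. Labels give the libraries as separate samples and name no mouse. No 2 libraries of a group agreed within sampling noise (lowest mean chi-square per gene within a group 8.97); pairs across groups were not compared in this way.

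At totals of 16452539 to 23117080 counts per library, a count of 0 allows up to 3 counts in a library. This covers counting error only.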

Additional observations from a re-analysis of the deposited data

How the results depend on the processing

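The number of members called was 0 under every alternative run for Dex against vehicle in the 4 genotypes, for the differences in response, for GRD/D against GRwt/wt in both treatments and for GRD+L/D+L against GRL/L. For GRL/L against GRwt/wt in vehicle (1 called) it was 0 without a filter on low counts (beside 3.36% of all genes), 0 with only the compared groups in the fit, 4 by the adjusted p alone (23%) and 2 with GRwt/wt vehicle replicate 2 as the only library of that group (8.11%), and leaving out 1 library gave 0 to 6. For GRD+L/D+L against GRwt/wt in vehicle (2 called) it was 1 with at least 10 counts in every library (6.01%), 0 with only the compared groups, 0 with the GC and length correction (6.84%) and 1 with that single GRwt/wt library (6.79%), and leaving out 1 library gave 1 to 4. With only the compared groups, 0 of all genes were called in either comparison, so that a count of 0 there says nothing of the members. Where a group is left with 1 library, here or in GRD/D vehicle, the spread comes from the other groups and that library is assumed to vary like them. DESeq2 called 3, adding Ifi44 (LFC 1.67, adjusted p = 0.0463). For GRL/L against GRwt/wt in Dex (1 called) it was 0 without a filter (0.979%) and 2 by the adjusted p alone, and leaving out 1 library gave 0 to 1. By the adjusted p alone it was 1 for GRD+L/D+L against GRwt/wt in Dex and 1 for GRD+L/D+L against GRD/D, and with only the compared groups it was 1 for GRL/L against GRD/D (Oasl2, LFC 1.35, adjusted p = 0.0239; beside 6.4% of all genes). Ifi35 in GRL/L against GRwt/wt in vehicle went from -0.61 to 0.0668 with the GC and length correction. Apart from fits on fewer samples, the cause of these changes was not tested.

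With the replicate number as a replicate block over all genotypes, the count stayed at 2 for GRD+L/D+L against GRwt/wt in vehicle, but Ifi44 (LFC 1.88, adjusted p = 0.0405) and Ifi27 were called and Oas1a (adjusted p = 0.0527) was not, and the count stayed at 1 for GRL/L in both treatments. Libraries of different genotypes come from different mice, so across genotypes the labels link them only by number. The replicate block within genotype left the count with Dex at 0 in each genotype.

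With 2 or 3 libraries a group, moderate changes can be missed. In simulated counts for GRL/L against GRwt/wt in vehicle, 36% of genes changed by an LFC of 1 passed the adjusted p. Of those changed by 2, 77% passed. The threshold on the fold was not applied there. The changed genes were drawn only from genes above a minimum mean count, so the shares do not cover members with few counts. Members such as Mx1, Oas2, Rsad2 and Cxcl10, with few counts in most libraries, are measured least precisely.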
